A study of Mus musculus with 8 samples.

Results

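Transcripts of the transforming growth factor beta (TGF-β) system were examined in periosteal cells of mice on a normal diet (ND) or a high-fat diet (HFD). The 10 genes, chosen by symbol from the 32285 genes of the count matrices, were the ligands Tgfb1, Tgfb2 and Tgfb3, the receptors Tgfbr1, Tgfbr2 and Tgfbr3, and the latent TGF-β binding proteins Ltbp1, Ltbp2, Ltbp3 and Ltbp4. The study asked how HFD feeding, used as a model of type 2 diabetes with neuropathy, alters cells of the long bone periosteum. Femoral and tibial periosteum of wild-type male C57BL/6J mice aged 16 weeks was digested with enzymes, without a cell sort, and profiled by droplet-based single-cell RNA sequencing (scRNA-Seq). ND mice ate a standard diet throughout, HFD mice ate the high-fat diet from week 4 of life until tissue was taken, and no allele or drug separated the groups. GEO lists 4 samples per diet, titled as replicates, but each diet was deposited as 1 pooled matrix whose barcodes carry no sample or mouse label. The design therefore had 1 library per diet, no replicate error and no test, and all intervals below are 95% intervals for counting error only.

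TGF-β ligands are secreted as dimers held inactive by their own cleaved propeptide, and the latent TGF-β binding proteins tie that latent complex to fibrils of the extracellular matrix. Once released, a ligand binds the type II receptor TGFBR2, which phosphorylates the type I receptor TGFBR1, and this activates the SMAD transcription factors. TGFBR3, also called betaglycan, has no kinase and presents ligand, TGF-β2 above all, to TGFBR2. Bone matrix is a large store of latent TGF-β, and the released ligand is known to recruit osteoblast progenitors and to couple bone formation to resorption.

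The ND library held 6314 barcodes and 48558889 UMIs (unique molecular identifiers, each one counted transcript), and the HFD library 6636 barcodes and 49940976 UMIs. The filter kept barcodes in which over 500 and under 8000 genes were seen and mitochondrial UMIs made up less than 20%, leaving 6029 ND and 6224 HFD cells with medians of 4610 and 4823.5 UMIs. Clustering gave 27 clusters, and 12 cell classes were named from marker lists, written here with the ending -like. All marker genes of the mesenchymal, endothelial and pericyte or smooth muscle lists were enriched in clusters of those names. There were 409 ND and 671 HFD mesenchymal-like cells (6.78% and 10.8% of each library), 116 and 230 endothelial-like cells, and 31 and 59 pericyte or smooth muscle-like cells. Most other cells were blood cells, led by neutrophil-like (2407 and 2436) and B cell-like cells (1550 and 1493). One shallow cluster of 218 ND and 162 HFD cells stayed unnamed. The libraries shared 15 barcode sequences. A level is given as UMIs per 1000000 UMIs of the class (UPM) in the ND and then the HFD library, and levels of different genes are not compared with each other, since no per-length scale applies.

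The upstream sequence of 4 genes with unlike distributions over the cell classes is shown first. Tgfb1 was detected in every class, Tgfb2 and Ltbp1 chiefly in stromal and vascular classes, and Ltbp2 almost wholly in mesenchymal-like cells. The 250 bases before the RefSeq start site (GRCm38.p6, the mm10 assembly) are printed on the gene's strand in lower case, with capitals for motif letters found on either strand: the TATA box (TATAAA), the CCAAT box (its own letters), the GC box (GGGCGG), the AP-1 site (TGANTCA) and the cAMP response element (TGACGTCA). None of these motifs overlaps another in the 4 windows. Of the 10 genes, 8 had an entry, with 12 start sites in all. The windows were chr7:25686752-25687001 (plus strand) for Tgfb1, chr1:186705990-186706239 (minus strand) for Tgfb2, chr17:75005279-75005528 (plus strand, the first of 2 starts) for Ltbp1 and chr12:84876492-84876741 (minus strand) for Ltbp2.
Tgfb1: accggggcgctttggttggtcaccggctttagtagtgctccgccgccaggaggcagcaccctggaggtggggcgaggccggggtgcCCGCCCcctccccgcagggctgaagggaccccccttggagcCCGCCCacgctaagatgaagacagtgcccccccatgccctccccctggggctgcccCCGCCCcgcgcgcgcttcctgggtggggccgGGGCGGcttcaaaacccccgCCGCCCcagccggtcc
Tgfb2: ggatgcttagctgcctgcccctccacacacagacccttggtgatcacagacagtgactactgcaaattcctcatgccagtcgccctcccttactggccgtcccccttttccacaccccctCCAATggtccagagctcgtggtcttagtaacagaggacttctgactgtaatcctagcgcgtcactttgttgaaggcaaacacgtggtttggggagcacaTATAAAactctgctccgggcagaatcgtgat
Ltbp1: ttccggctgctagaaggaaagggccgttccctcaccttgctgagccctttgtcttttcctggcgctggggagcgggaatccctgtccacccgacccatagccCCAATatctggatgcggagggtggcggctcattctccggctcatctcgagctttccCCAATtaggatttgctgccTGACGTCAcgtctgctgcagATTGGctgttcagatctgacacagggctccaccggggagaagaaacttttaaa
Ltbp2: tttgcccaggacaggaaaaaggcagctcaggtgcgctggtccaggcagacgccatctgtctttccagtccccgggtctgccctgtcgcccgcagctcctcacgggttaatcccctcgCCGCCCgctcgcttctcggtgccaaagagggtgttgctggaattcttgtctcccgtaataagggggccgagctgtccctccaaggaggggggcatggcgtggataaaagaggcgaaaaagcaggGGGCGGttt

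The Tgfb1 window was 75.2% G or C and held 5 GC boxes and no match to the other 4 motifs. The Tgfb2 window was 53.6% G or C, with a TATA box starting at position -31 and a CCAAT box at -130 from the start site. The Ltbp1 window held a cAMP response element at -73 and 3 CCAAT boxes, and the Ltbp2 window 2 GC boxes. Among 32851 mouse promoter windows of the same length, 12.4% held the TATA box, 33.8% the CCAAT box, 32.7% the GC box, 6.75% the AP-1 site and 1.55% the cAMP response element, so a match to the CCAAT or GC box is common. A match is a run of letters, and binding was not measured.

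Among the ligands, Tgfb1 was spread over nearly all classes and was lower in mesenchymal-like cells than in most blood cell classes. Tgfb1 (ENSMUSG00000002603, chr7:25687002-25705077, plus strand, mm10), which encodes the ligand best known from platelets, leukocytes and bone matrix, had 263 UPM (interval 251 to 276) in ND and 272 (259 to 285) in HFD macrophage/monocyte-like cells. B cell-like cells had 233 (223 to 244) and 289 (277 to 301), and hematopoietic progenitor-like cells 231 (219 to 242) and 236 (222 to 250). The first 6 classes in order of Tgfb1, all of blood cells, could not be separated from their neighbours in both libraries at once. Endothelial-like cells had 167 (135 to 204) and 133 (112 to 156) and T cell-like cells 115 (101 to 131) and 120 (103 to 138), without separating. The step from T cell-like to mesenchymal-like cells, with 70.4 (63 to 78.3) and 78.4 (72 to 85.2), was the one neighbouring gap clear of counting error in both libraries. Neutrophil-like cells had 62.3 and 60.4 UPM.

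Tgfb2 and Tgfb3 were stromal and vascular transcripts. Tgfb2 (ENSMUSG00000039239, chr1:186622792-186705989, minus strand), whose product needs betaglycan for efficient receptor binding, had 81.7 UPM (73.8 to 90.2) in ND and 69.4 (63.3 to 75.8) in HFD mesenchymal-like cells. It had 68.6 (48.8 to 93.8) and 48.8 (36.7 to 63.7) in endothelial-like cells and 41.2 (21.9 to 70.4) and 76.3 (55.2 to 103) in pericyte or smooth muscle-like cells, so the order of these 3 classes differed between the libraries, and their intervals overlapped in part. No other class passed 3.37 UPM. Tgfb3 (ENSMUSG00000021253, chr12:86056745-86079041, minus strand) had 133 UPM (95.9 to 180) and 97.6 (73.5 to 127) in pericyte or smooth muscle-like cells and 74.3 (66.8 to 82.5) and 84.1 (77.5 to 91.2) in mesenchymal-like cells. Endothelial-like cells, which carried Tgfb2, had 3.52 UPM (2 UMIs) and 9.94 UPM (11 UMIs) of Tgfb3, and other classes at most 4.07.

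Of the receptors, Tgfbr1 and Tgfbr2 were in more classes than Tgfb2 and Tgfb3. Tgfbr1 (ENSMUSG00000007613, chr4:47353222-47414931, plus strand), the type I kinase, had 64.2 and 65.8 UPM in dendritic-like cells and 50.1 (43.9 to 56.8) and 49.5 (44.4 to 55) in mesenchymal-like cells. Macrophage/monocyte-like cells had 32.1 and 30 UPM, neutrophil-like cells 20.7 and 16.9, and erythroid-like cells 1.79 and 0. Tgfbr2 (ENSMUSG00000032440, chr9:116084293-116175360, minus strand), the ligand-binding type II kinase, was highest in mesenchymal-like cells with 172 (160 to 184) and 155 (146 to 164), followed by endothelial-like cells with 107 (82.1 to 138) and 124 (104 to 146). T cell-like cells had 55.5 and 73.7 UPM, B cell-like cells 55.2 and 63.7, and hematopoietic progenitor-like cells 8.94 and 11.7. Tgfbr3 (ENSMUSG00000029287, chr5:107106570-107289629, minus strand) had the narrowest range of the 3, with 140 (129 to 151) and 127 (119 to 136) in mesenchymal-like cells. It had 56.3 (38.5 to 79.5) and 61.5 (47.7 to 77.9) in endothelial-like cells and 53.8 (31.4 to 86.2) and 47.9 (31.6 to 69.7) in pericyte or smooth muscle-like cells. Outside these classes only basophil or mast-like cells, with 7.85 and 19.9 UPM, exceeded 5.31.

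Within blood cell classes the UPM of Tgfbr2 was higher in the more mature or tissue-resident cells, with intervals that did not overlap in either library. Resident macrophage-like cells had 132 UPM of Tgfbr2 in ND and 106 in HFD, against 18.4 and 12.6 in monocyte-like cells. For Tgfbr1 the same pair had 69.8 and 61 against 17.4 and 15.3. Mature neutrophil-like cells had 39.3 and 38.4 UPM of Tgfbr2 and immature ones 10.4 and 10.3. Mature B cell-like cells had 73.5 and 81.2 against 28.7 and 43.8 in B cell precursor-like cells. Shares of cells with Tgfbr2 had overlapping intervals, with 12.3% and 11.9% of mature against 10.7% and 9.8% of immature neutrophil-like cells. In B cells they were 24.3% and 25.6% of mature against 20.2% and 27% of precursor-like cells. Median depths were 3213 and 3276 UMIs in mature and 9389.5 and 10278 in immature neutrophil-like cells. Resident macrophage-like cells kept the step, with 51.8% and 53.9% against 18.8% and 15.5% of monocyte-like cells. Tgfbr1 had 33.9 and 25.1 UPM in mature against 14.4 and 13.4 in immature neutrophil-like cells. By share of cells with Tgfbr1 the order was reversed, with 10.7% and 7.84% of mature against 15.2% and 14% of immature cells. The part of depth in this was not tested. In mature B cell-like cells Tgfbr1 had 16.6 and 15.8 UPM, against 16.7 and 21 in B cell precursor-like cells. The ligand Tgfb1 showed no such step in macrophages and monocytes, with 287 and 284 UPM in resident macrophage-like and 254 and 266 in monocyte-like cells.

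The latency proteins were stromal, and Ltbp4 was shared with endothelium. Ltbp1 (ENSMUSG00000001870, chr17:75005568-75392512, plus strand), the main carrier of latent TGF-β1 to fibronectin and fibrillin fibrils, had 149 UPM (109 to 198) and 115 (89 to 147) in pericyte or smooth muscle-like and 115 (105 to 125) and 101 (93.7 to 109) in mesenchymal-like cells. Endothelial-like cells had 19.4 and 15.4 UPM, and the other classes at most 1.81. Ltbp2 (ENSMUSG00000002020, chr12:84783212-84876532, minus strand), the family member that does not bind latent TGF-β and associates with fibrillin microfibrils, had 88 (79.7 to 96.8) and 94.4 (87.4 to 102) in mesenchymal-like cells. Pericyte or smooth muscle-like cells had 0 Ltbp2 UMIs in both libraries, which allows up to 9.5 and 5.33 UPM (3 counts), and endothelial-like cells had 0 and 1 UMI. Ltbp3 (ENSMUSG00000024940, chr19:5740904-5758532, plus strand), known for a role in skeletal growth, had 119 (109 to 129) and 129 (121 to 138) in mesenchymal-like cells, 22.2 and 21.3 in pericyte or smooth muscle-like cells and 5.28 and 12.7 in endothelial-like cells. Ltbp4 (ENSMUSG00000040488, chr7:27305136-27337692, minus strand), which also guides elastic fibre assembly, had 576 (515 to 641) and 666 (619 to 716) in endothelial-like cells and 488 (468 to 508) and 494 (478 to 511) in mesenchymal-like cells. In pericyte or smooth muscle-like cells, where Ltbp1 was present, Ltbp4 had 19 UPM (6 UMIs) and 24.9 UPM (14 UMIs).

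**Figure D1:**
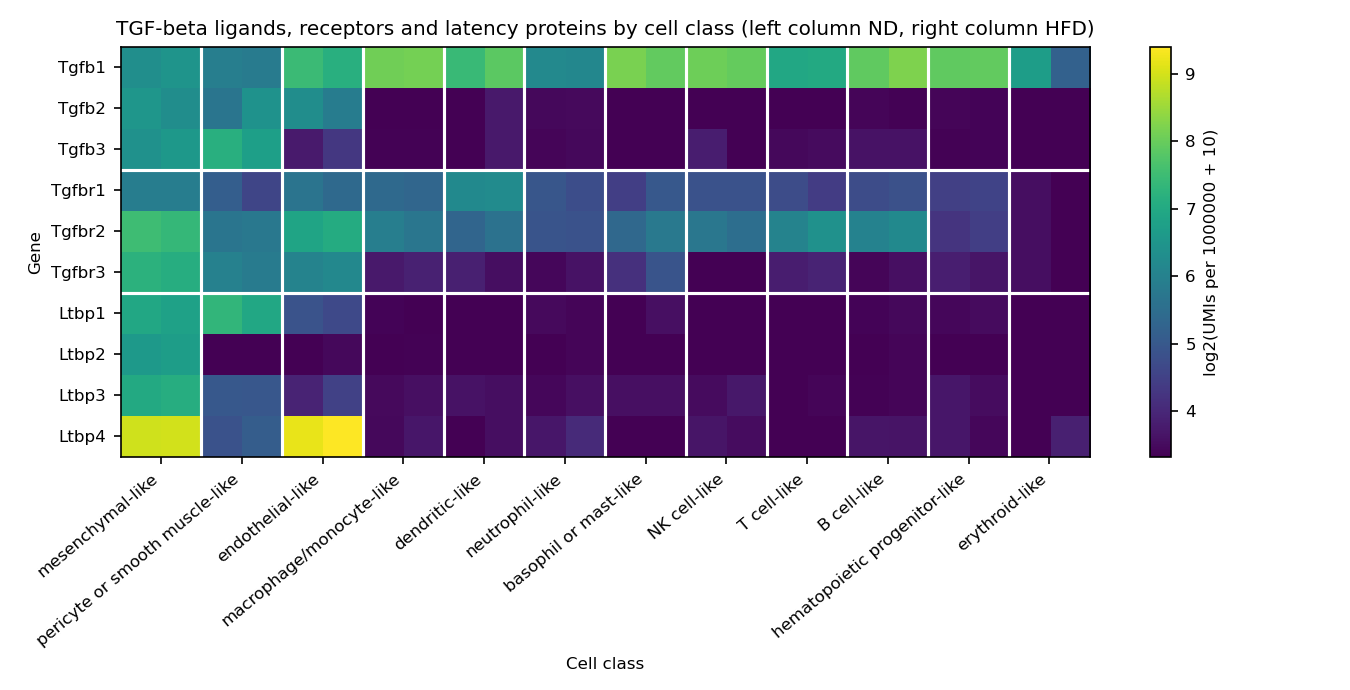
Heat map of the level of the 10 genes (rows) in the 12 named cell classes (columns, with ND on the left and HFD on the right of each pair), coloured by log2 (UMIs per 1000000 UMIs of the class + 10) and to be read along a row. Tgfb1 runs across all classes, with 263 and 272 UPM in macrophage/monocyte-like and 70.4 and 78.4 in mesenchymal-like cells, while Ltbp2 stands at 88 and 94.4 in mesenchymal-like cells and at or near 0 elsewhere.

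For the pairs of classes set against each other here, the share of cells with at least 1 UMI gave the same contrast. Ltbp4 was detected in 71.9% of ND and 72.9% of HFD mesenchymal-like cells and in 1.1% and 1.07% of B cell-like cells, which should lack it, at median depths of 10640 and 9525 UMIs against 3915 and 3831. After each cell was thinned to 1000 UMIs, leaving out 55 ND and 51 HFD shallower cells, the shares were 33.5% and 31.8% against 0.194% and 0.268%. In endothelial-like cells Ltbp4 was in 72.4% and 73.5% of cells, and in 38.4% and 39.2% after thinning. Ltbp2 was found in 25.7% and 24% of mesenchymal-like cells and in 0.0645% and 0.201% of B cell-like cells. Tgfb1 was found in 87.9% and 88.2% of macrophage/monocyte-like cells (22.8% and 24.1% thinned) and in 24.8% and 26.1% of neutrophil-like cells (5.87% and 6% thinned).

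Cells were then pooled as the study pooled its niches. The stromal/vascular niche joined mesenchymal-like, endothelial-like and pericyte or smooth muscle-like cells, and the immune niche neutrophil-like, macrophage/monocyte-like and T cell-like cells. Of the 10 genes, 9 were over 1.5-fold higher in the stromal/vascular niche in both libraries, where 54.9% of all genes tested in ND and 60.1% in HFD were. Tgfb1 was the exception, with 79 UPM in stromal/vascular and 120 in immune cells in ND and 83.4 against 119 in HFD. It was thus 1.52-fold higher in the immune niche in ND and 1.43-fold in HFD, and 20.1% and 18.3% of all genes were over 1.5-fold higher in immune cells. The share of cells with Tgfb1 was not higher in the immune niche. It was 42.1% and 39.4% of stromal/vascular against 37.2% and 38.1% of immune cells. Median depths were 9421 and 8022 against 5102 and 5390 UMIs. B cell-like, hematopoietic progenitor-like, NK cell-like, dendritic-like and basophil or mast-like cells were in neither niche. Each had more Tgfb1 than the immune niche in both libraries. Erythroid-like cells, also in neither niche, had less, at 94.7 and 27.1 UPM. With cells thinned to 1000 UMIs, the log2 ratio of stromal/vascular over immune Tgfb1 moved from -0.61 and -0.52 to -0.05 and -0.21. With cells weighted equally inside each class and class totals kept, the ratios were -0.76 and -0.62.

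The receptors differed in how far they stood above the immune niche. Tgfbr1 had 47.7 UPM against 23.4 in ND and 45 against 20 in HFD (log2 ratios 1.03 and 1.17), and Tgfbr2 158 against 30.8 and 144 against 28.3 (2.36 and 2.34). Tgfbr3 had log2 ratios of 6.17 and 5.22. Tgfb2 (6.87 and 6.53), Tgfb3 (7.02 and 6.48), Ltbp1 (6.95 and 7.78), Ltbp3 (6.94 and 5.94) and Ltbp4 (7.74 and 6.54) were rare in immune cells. Ltbp2 had 0 immune UMIs in ND, which makes it at least 612-fold higher in stromal/vascular cells against a floor of 3 counts, and its HFD log2 ratio was 7.40.

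The share of a gene's UMIs held by a class depends on these levels, on the number of cells and on the UMIs per cell. Stromal/vascular cells held 5.96% of ND and 9.41% of HFD Tgfb1 UMIs, and B cell-like cells 24.7% and 29.1%, macrophage/monocyte-like cells 23.4% and 23.6%, progenitor-like cells 21.7% and 15.5% and neutrophil-like cells 13.4% and 13.5%. Depth counted in this. Progenitor-like cells, only 3.96% (ND) and 3.13% (HFD) of the cells kept, had a median of 29230 UMIs with both libraries pooled. B cell-like cells, at 25.7% and 24%, had medians of 3915 and 3831 UMIs. For Tgfbr1 the stromal/vascular share was 23.5% and 32.6%, and for Tgfbr2 39.7% and 47.8%. For the other 7 genes it was between 84.8% (Tgfbr3 in HFD) and 99.5% (Ltbp2 in ND).

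**Figure D2:**
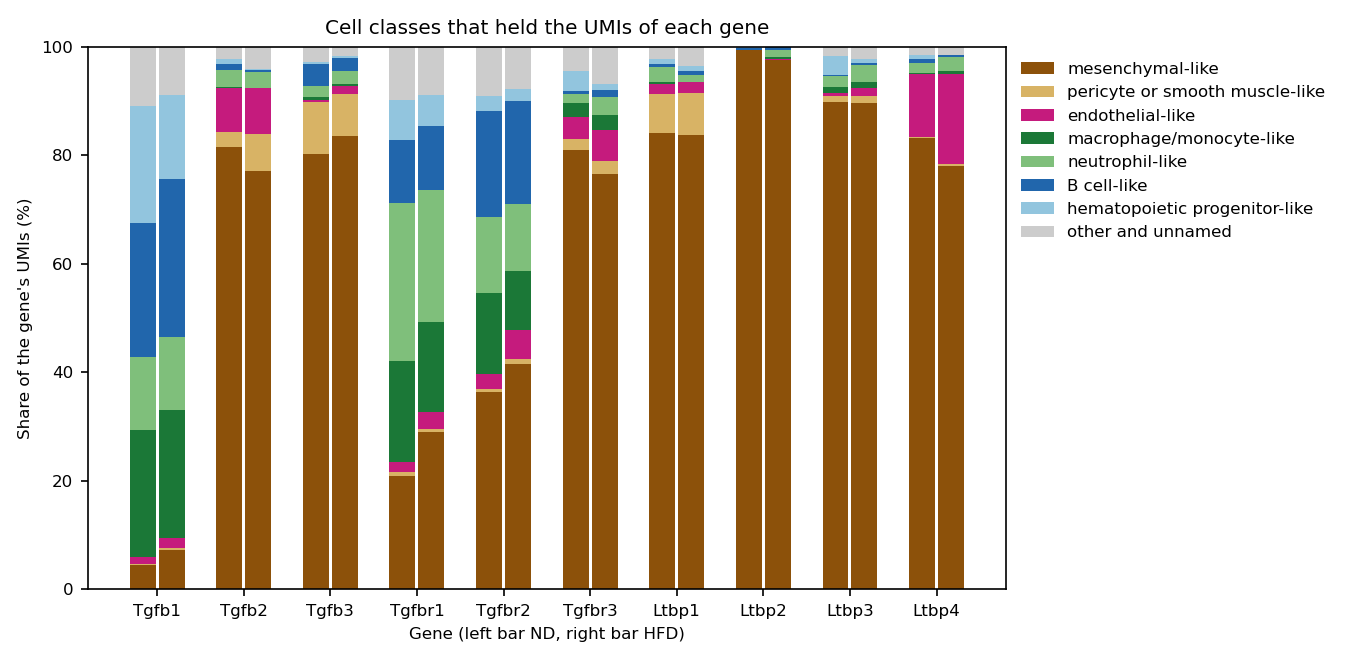
Stacked bars of the share of each gene's UMIs (percent) held by each cell class, with the ND library as the left and the HFD library as the right bar of each pair. Mesenchymal-like, pericyte or smooth muscle-like and endothelial-like cells, at the foot of the bars, together hold 5.96% and 9.41% of Tgfb1 UMIs and 99.5% and 97.8% of Ltbp2 UMIs.

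Mesenchymal-like cells were split further by marker genes. Pi16 fibroblast-like cells (91 ND and 107 HFD), marked by genes of the adventitial fibroblast state, Ccl11 fibroblast-like cells (112 and 209) and osteoblast-like cells (58 and 128) were named. Another pair is called here by a leading gene. The H19-led subcluster (91 and 129 cells) scored highest for the tenocyte list, with 4 of its 6 markers enriched, and the Col2a1-led subcluster (16 and 53 cells) for the chondrocyte list, also with 4 of 6. All 6 tenocyte markers were higher in the Col2a1-led subcluster, among them the tendon transcription factor Scx (314 against 125 UPM) and Tnmd, which encodes tenomodulin (898 against 173 UPM), and so neither was given a cell type name. Of the Ccl11 fibroblast-like cells, 19 ND and 51 HFD came from a shallow subcluster with a median of 2002 UMIs. One subcluster of 34 and 30 cells was led by neutrophil genes and one of 7 and 15 cells by Prg4, and both also stayed unnamed.

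The 3 ligands had different leading subclusters. Tgfb1 was highest in Col2a1-led cells, at 219 UPM (162 to 290) in ND and 157 (128 to 190) in HFD, and osteoblast-like cells, at 145 (115 to 181) and 157 (134 to 182), both above Pi16 fibroblast-like cells at 61.8 (48.3 to 77.9) and 51.2 (39.6 to 65.2). Tgfb2 was highest in Pi16 fibroblast-like cells, at 132 (112 to 155) and 92.3 (76.5 to 110), and Ccl11 fibroblast-like cells, at 124 (104 to 147) and 105 (90.7 to 121), and was 28.8 and 22.7 in H19-led cells. Tgfb3 stood at 192 (166 to 220) and 221 (197 to 248) in H19-led cells, clear of Col2a1-led cells, which had more of the tenocyte markers, at 62.6 (34.2 to 105) and 92.8 (71 to 119), and at 19.1 and 27.2 in Pi16 fibroblast-like cells. Tgfb3 was found in 74.7% and 79.1% of H19-led and 22% and 26.2% of Pi16 fibroblast-like cells, and after thinning in 13.2% and 16.5% against 3.3% and 1.87%.

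Of the 5 subclusters, Pi16 fibroblast-like cells had the most Tgfbr2 and Tgfbr3, and osteoblast-like cells the least of each receptor. Tgfbr2 fell in the order Pi16 fibroblast-like, with 302 UPM (271 to 335) and 292 (263 to 323), then Ccl11 fibroblast-like, with 193 (167 to 221) and 145 (128 to 163), which separated in both libraries. H19-led cells had 150 (127 to 175) and 170 (149 to 193), and osteoblast-like cells 30.2 (17.2 to 49) and 60.8 (47.1 to 77.2). Tgfbr3 had 203 and 207 UPM in Pi16 fibroblast-like and 180 and 161 in Ccl11 fibroblast-like cells, which did not separate in both libraries. It had 107 and 146 in Col2a1-led, 80.5 and 79.2 in H19-led and 49 and 48.1 in osteoblast-like cells. Tgfbr1 varied less, between 30.2 and 65.8 UPM over the 5 subclusters, and no neighbours separated in both libraries. Osteoblast-like cells had the lowest value of each receptor among these 5 subclusters in both libraries, but no gap to the next subcluster was clear of counting error in both.

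Ltbp4 was highest in fibroblast-like cells, and Ltbp2 in H19-led and Col2a1-led cells. Ltbp4 had 843 UPM (788 to 900) and 969 (924 to 1015) in Ccl11 fibroblast-like and 814 (762 to 867) and 831 (782 to 882) in Pi16 fibroblast-like cells, against 177 (153 to 205) and 183 (161 to 207) in H19-led and 56.5 (38.1 to 80.7) and 47.2 (35.2 to 61.9) in osteoblast-like cells. Ltbp2 had 196 (170 to 224) and 235 (210 to 262) in H19-led and 232 (174 to 305) and 145 (117 to 177) in Col2a1-led cells, and 13.4 and 31.4 in Ccl11 fibroblast-like cells. Ltbp1 was highest in H19-led cells, at 183 (158 to 211) and 201 (178 to 226), then Pi16 fibroblast-like cells, at 145 (124 to 169) and 163 (142 to 187), and was 13.2 and 29.9 in osteoblast-like cells. Ltbp3 ranged from 62.8 to 183 UPM over these 5 subclusters, and had 388 and 397 in the small Prg4-led one.

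**Figure D3:**
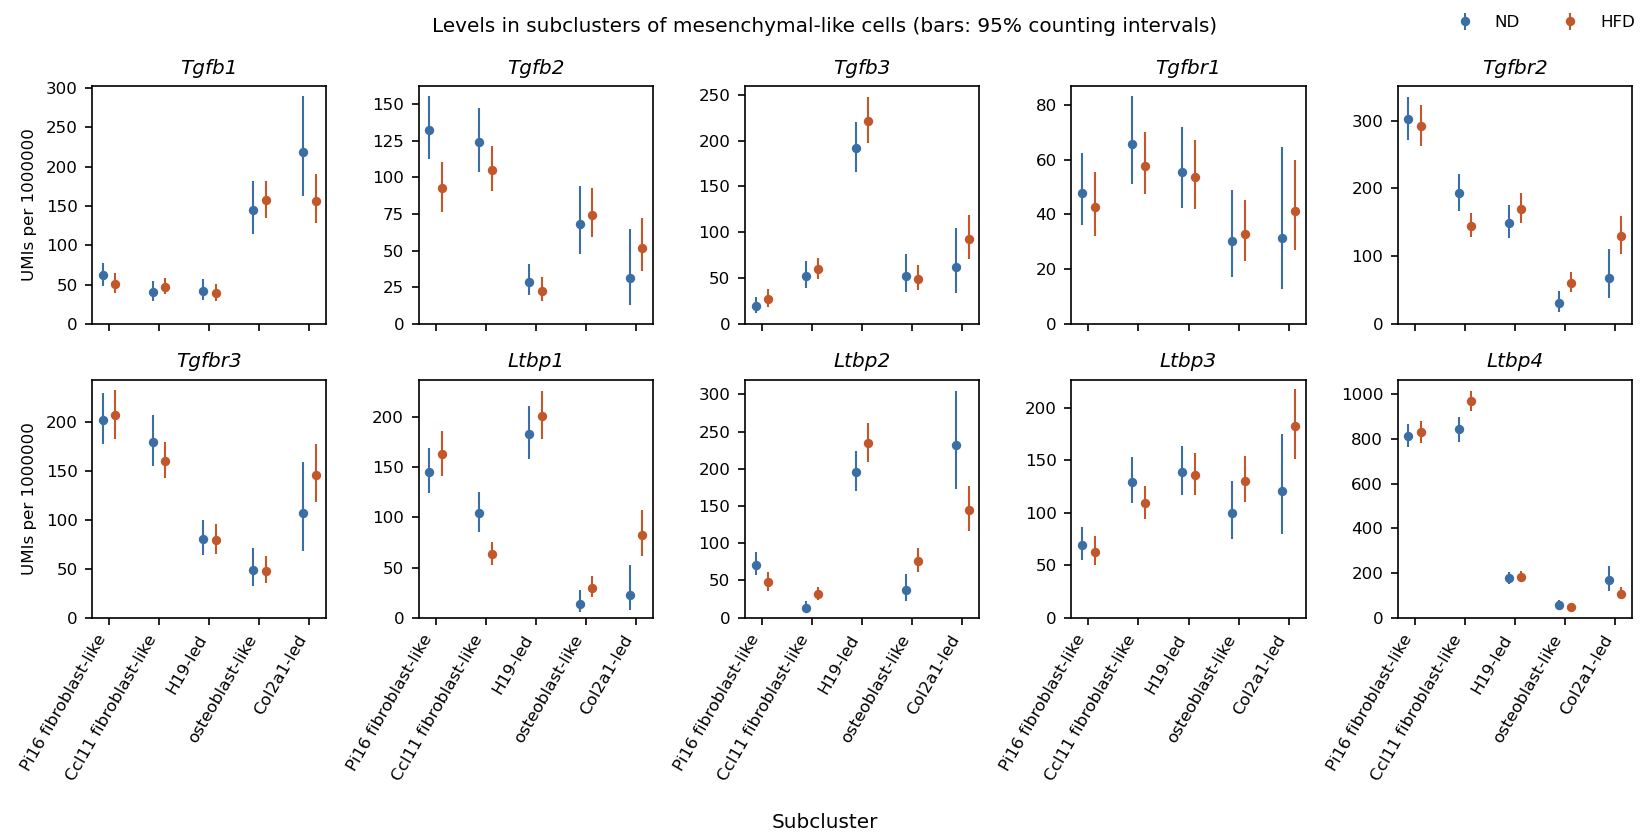
Level of each gene (1 panel each, vertical axis in UMIs per 1000000 UMIs of the subcluster) in 5 subclusters of mesenchymal-like cells, with points for the ND and HFD libraries and bars for the exact 95% counting interval. Tgfb3 peaks in H19-led cells (192 and 221), Tgfbr2 in Pi16 fibroblast-like cells (302 and 292) and Ltbp4 in both fibroblast-like subclusters (814 to 969).

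The diets were compared within each class for genes with at least 20 UMIs, by dividing the HFD level by the ND level after adding 0.5 to each count and taking log2. In mesenchymal-like cells none of the 10 genes was past 1.5-fold in either direction, where 13.9% of all 12626 genes tested were. Of the ligands, Tgfb1 had a log2 ratio of 0.15 (-0.04 to 0.36), Tgfb2 -0.24 (-0.43 to -0.04) and Tgfb3 0.18 (-0.01 to 0.37). Of the receptors, Tgfbr1 had -0.02 (-0.26 to 0.23), Tgfbr2 -0.15 (-0.28 to -0.01) and Tgfbr3 -0.13 (-0.28 to 0.01). Of the latency proteins, Ltbp1 had -0.18 (-0.35 to -0.02), Ltbp2 0.10 (-0.08 to 0.28), Ltbp3 0.12 (-0.03 to 0.28) and Ltbp4 0.02 (-0.06 to 0.10). As folds of HFD over ND all 10 lay between 0.85 and 1.13, and for Tgfb2, Tgfbr2 and Ltbp1 the counting interval lay below 0 on the log2 scale. The median over the 10 genes was 0.00 and that over all genes 0.05, and 5 genes lay above and 5 below 0. Summed over the 10 genes, the level was 1396 UPM (6668 UMIs) in ND and 1382 UPM (9664 UMIs) in HFD. Ltbp4 alone gave 2328 and 3455 of these UMIs, so the sum leans on this gene. The mix of subclusters differed between the libraries, with 58 ND and 128 HFD osteoblast-like and 91 and 107 Pi16 fibroblast-like cells. Within subclusters, the Tgfbr2 ratio was -0.05 in Pi16 fibroblast-like, -0.41 in Ccl11 fibroblast-like and 0.18 in H19-led cells. It was 0.98 in osteoblast-like and 0.91 in Col2a1-led cells. In the class sums, another mix of subclusters and another level per cell cannot be told apart.

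The ND mesenchymal-like cells carried more neutrophil transcripts than the HFD ones. The 8 neutrophil markers summed to 19186 UPM in ND and 8715 in HFD, all 8 were lower in HFD, 7 of them past 1.5-fold, and none was at 0. The count of genes past 1.5-fold stayed at 0 of 10 without the subcluster led by neutrophil genes. Of 19 dissociation and immediate-early genes, all were lower in HFD mesenchymal-like cells (median log2 ratio -0.44, 3 past 1.5-fold), and their part in the ratios above was not tested.

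The vascular classes held few counts. In endothelial-like cells none of the 7 genes tested was past 1.5-fold, against 20% of all genes, and Ltbp4 had a log2 ratio of 0.21 (0.02 to 0.40). In pericyte or smooth muscle-like cells 1 of 7 was, against 23.7% of all genes. This was Tgfb2, with 13 ND and 43 HFD UMIs and a log2 ratio of 0.85 (-0.03 to 1.91), an interval that includes 0.

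In the main blood cell classes the ligand Tgfb1 stayed under 1.5-fold, and the genes past it had at most 112 UMIs in a library. B cell-like cells had 1 of 6 genes past 1.5-fold, against 10.6% of all genes, namely Tgfbr3 with 5 ND and 15 HFD UMIs, while Tgfb1, with 1855 and 2236 UMIs, had a log2 ratio of 0.31 (0.22 to 0.40), a 1.24-fold higher level in HFD. The 7 mesenchymal markers summed to 40.8 UPM in ND and 104 in HFD B cell-like cells (6 of 6 tested past 1.5-fold higher, none at 0), and their part in the Tgfbr3 value was not tested. Neutrophil-like cells had 5 of 9, against 12.9%. Of these, Tgfbr3 (13 and 38 UMIs, log2 ratio 1.42), Ltbp3 (12 and 31 UMIs, 1.24), Ltbp4 (48 and 112 UMIs, 1.12) and Tgfb3 (9 and 17 UMIs, 0.79) were higher in HFD and Ltbp1 (18 and 10 UMIs, -0.91) lower. For Tgfb3 and Ltbp1 the counting interval included 0. A cluster of immature neutrophil-like cells held 231 ND and 20 HFD cells, so the mix of cells in this class also differed between the libraries. The UMIs lay in few cells. In immature neutrophil-like cells, 11 ND Tgfbr3 UMIs lay in 7 of 908 cells and 34 HFD UMIs in 13 of 969. For Ltbp4 there, 36 ND UMIs lay in 13 cells and 77 HFD UMIs in 29. The 7 mesenchymal markers also summed to more UPM in HFD than in ND neutrophil-like cells (243 against 139; all 7 above 0 on the log2 scale, 4 past 1.5-fold, none at 0), and their part in these values was not tested.

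Of the other blood cell classes, macrophage/monocyte-like cells had 1 of 6 genes past 1.5-fold, against 10.8% of all genes, namely Ltbp4 with 6 and 20 UMIs. Of the 20, 14 lay in 3 of 206 resident macrophage-like cells (1.46%), against 2 UMIs in 2 of 166 such ND cells (1.2%), so the value rests on few cells. In macrophage/monocyte-like cells the summed mesenchymal markers were 84.4 UPM in ND and 65.5 in HFD (of 6 tested, 1 past 1.5-fold higher and 1 lower). Hematopoietic progenitor-like cells had 3 of 6, against 10.8% (6.25% lower in HFD), and all 3 had ratios below 0. These were Tgfbr3 (30 and 14 UMIs, log2 ratio -0.59), Ltbp3 (21 and 8 UMIs, -0.85) and Ltbp4 (21 and 4 UMIs, -1.77). For Tgfbr3 and Ltbp3 the counting interval included 0. In progenitor-like cells the summed mesenchymal markers were 66.4 UPM in ND and 43.5 in HFD (of 5 tested, 3 past 1.5-fold higher and 1 lower, 1 at 0 in HFD), and the part of these in the values was not tested. Erythroid-like cells had 1 of 1, against 25.5%, with Tgfb1 at 53 and 12 UMIs (-1.76). T cell-like (0 of 3, against 16.4%), NK cell-like (0 of 3, against 18.5%), basophil or mast-like (0 of 2, against 22.6%) and dendritic-like cells (0 of 3, against 21.1%) had none.

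**Figure D4:**
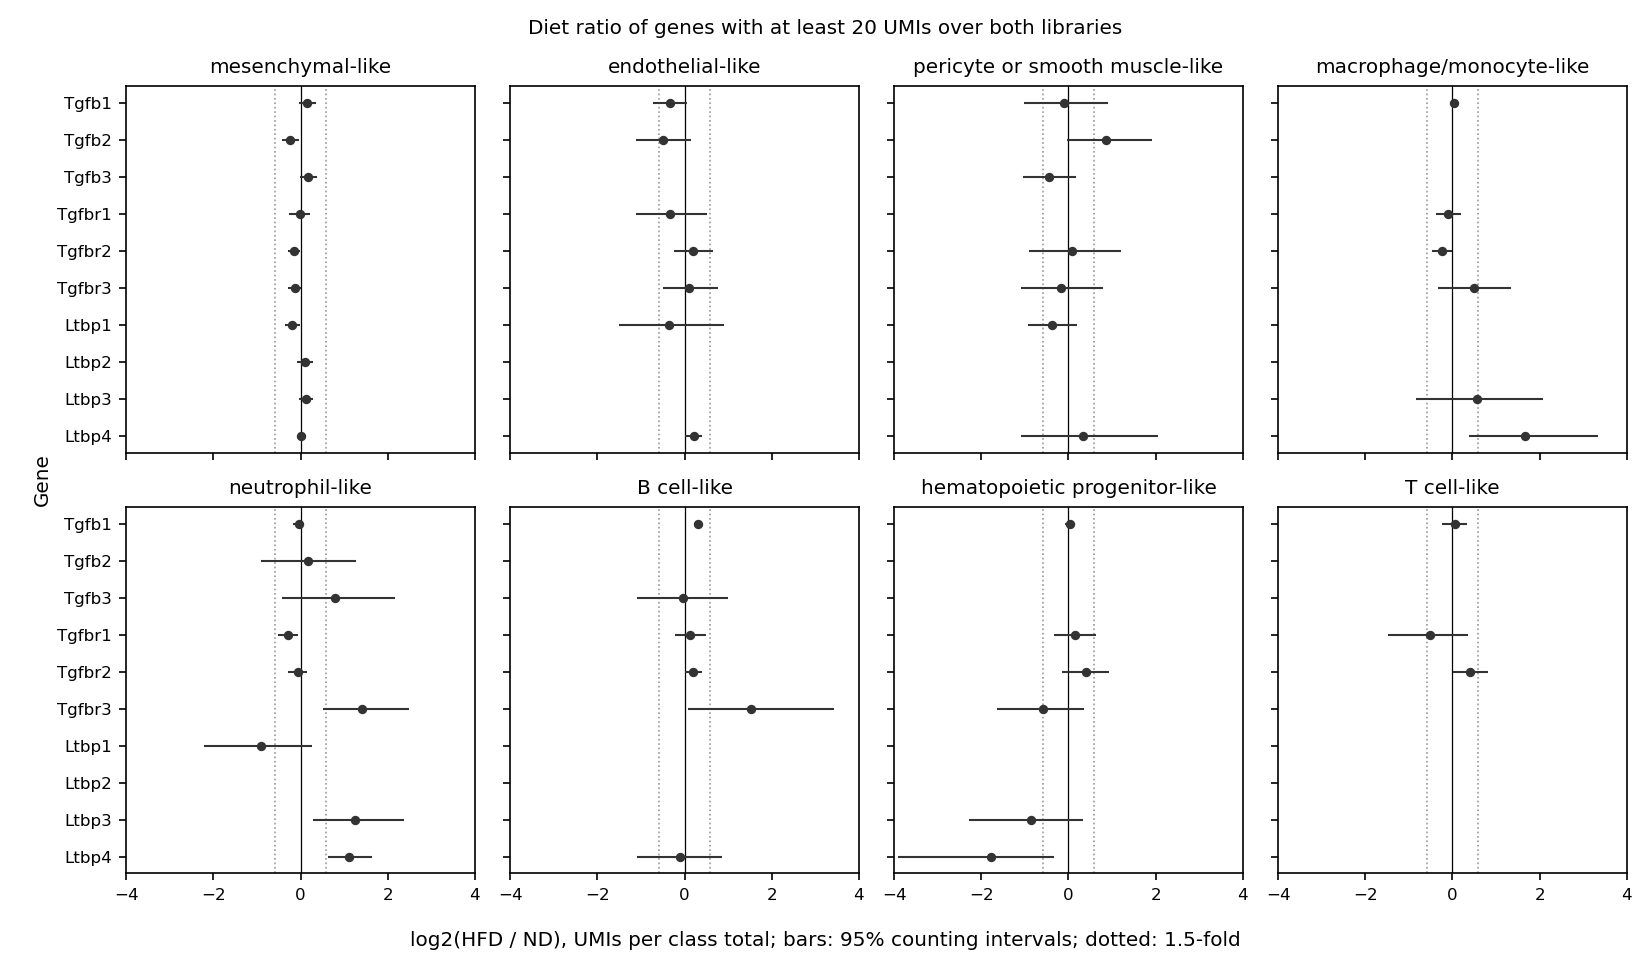
Log2 ratio of HFD over ND (horizontal axis) for each of the 10 genes with at least 20 UMIs in 8 cell classes (panels), with points for the ratio, bars for the 95% counting interval and dotted lines at 1.5-fold. In mesenchymal-like cells all 10 ratios lie between -0.24 and 0.18, while in neutrophil-like cells Tgfbr3 (1.42), Ltbp3 (1.24) and Ltbp4 (1.12) lie to the right of the upper line.

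Over all kept cells, 4 of the 10 genes were past 1.5-fold and all 4 were higher in HFD, where 15.5% of all genes were past it and 11.1% were higher. Tgfb3 had 9.19 UPM in ND and 14.2 in HFD (1.55-fold), Ltbp2 was 1.56-fold, Ltbp3 1.55-fold and Ltbp4 1.54-fold higher, with 58.2 and 89.5 UPM. Tgfb1 had 156 and 155 UPM. The share of mesenchymal-like cells was 6.78% in the ND and 10.8% in the HFD library, and within them these 4 genes had log2 ratios of 0.02 to 0.18. In such pooled sums, more cells of a type and more RNA per cell cannot be told apart.

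Among the mesenchymal-like subclusters, H19-led cells had 0 of 10 genes past 1.5-fold, against 18.2% of all genes tested there. Pi16 fibroblast-like cells had 1 of 10, against 16.9%, and Ccl11 fibroblast-like cells 2 of 10, against 18.5%. In the latter, Ltbp1 was lower in HFD, with 104 and 63.3 UPM and a log2 ratio of -0.72 (-1.11 to -0.33), and Ltbp2 higher, with 14 and 57 UMIs. Osteoblast-like cells had 3 of 10, against 23.1% (12% higher in HFD), and all 3 were higher in HFD: Tgfbr2 with 16 and 67 UMIs and a log2 ratio of 0.98 (0.21 to 1.90), Ltbp2 with 20 and 84 UMIs and 0.99 (0.30 to 1.80), and Ltbp1 with 7 and 33 UMIs and 1.10 (-0.02 to 2.60). Col2a1-led cells, with 16 ND cells, had 5 of 10, against 33.9%. Of these, Ltbp1 (5 and 54 UMIs, log2 ratio 1.75), Tgfbr2 (0.91) and Tgfb2 (0.65) were higher in HFD and Ltbp2 (-0.69) and Ltbp4 (-0.66) lower. The Ltbp2 ratio was thus below 0 in Pi16 fibroblast-like cells (-0.59, -1.09 to -0.10) and Col2a1-led cells and above 0 in Ccl11 fibroblast-like and osteoblast-like cells. It was also above 0 in H19-led cells, with 204 and 320 UMIs and a log2 ratio of 0.26 (0.005 to 0.52). These differences between subclusters were not tested. Ltbp2 was in 62.6% and 65.9% of H19-led cells, and in the other subclusters its UMIs came from few cells. In Pi16 fibroblast-like cells the 82 ND UMIs lay in 14 cells and the 61 HFD UMIs in 16 (15.4% and 15% of cells), and in Ccl11 fibroblast-like cells the 14 and 57 UMIs lay in 7 and 14 cells (6.25% and 6.7%). In both fibroblast-like subclusters the shares of cells thus stayed close while the sums differed. Ltbp2 was in 17.2% and 21.9% of osteoblast-like cells, and in 50% (8 of 16) and 22.6% (12 of 53) of Col2a1-led cells. For Tgfbr2 the shares also stayed close, at 27.6% and 33.6% of osteoblast-like and 50% and 54.7% of Col2a1-led cells. For Ltbp1 they rose, from 8.62% to 20.3% of osteoblast-like and from 12.5% to 37.7% of Col2a1-led cells. The Poisson intervals take UMIs as independent and do not cover UMIs that lie in few cells.

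The other parts of the pathway were read from 7 lists of 47 genes, of which 46 had enough UMIs in mesenchymal-like cells. Of these, 3 were past 1.5-fold higher and 1 lower in HFD, against 8.2% and 5.74% of all genes. Among furin and the activators of latent TGF-β (10 tested, 1 higher, median log2 ratio 0.25), Itgb8, the β chain of an integrin that frees TGF-β from its propeptide, had 24 and 63 UMIs (0.82). The matrix protease Mmp2 had 612 and 732 UPM (0.26), the integrin chain Itgb1 409 and 491 (0.26), Thbs1, encoding thrombospondin-1, 233 and 231 (-0.01), and the membrane protease Mmp14 154 and 199 (0.37). Among partners and anchors (6 tested, 1 lower, median 0.07), Nrros, which tethers latent TGF-β1 on myeloid cells, had 36 and 20 UMIs (-1.38). In macrophage/monocyte-like cells Nrros stood at 104 and 125 UPM. Of the other anchors, the fibril proteins Fn1 (0.12) and Fbn1 (0.03), Emilin1 (0.47) and the cell-surface tether Lrrc32 (-0.34) stayed under 1.5-fold.

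Accessory receptors (5 tested) and matrix proteins that bind TGF-β (4 tested) had none past 1.5-fold and medians of 0.03 and 0.28. The decoy receptor Bambi had 97.8 and 81.8 UPM (-0.26), the co-receptor Cd109 86.3 and 67.5 (-0.35), and the type I receptors Acvrl1 and Acvr1 45.7 and 46.8 and 28.7 and 35. The proteoglycans Dcn (0.10), Aspn (0.23), Bgn (0.43) and Fmod (0.33) were all above 0. Transducers (4 tested, none past, median 0.09) included Smad4 with 80.4 and 82.5 UPM, Smad2 with 33.9 and 35.6, Smad3 with 24.9 and 31.3 and Zfyve9, an adaptor that brings SMADs to the receptor, with 33.5 and 36.2. Inhibitors (8 tested, none past, median 0.06) included Pmepa1 (0.48), Skil (0.12), Ski (-0.04) and Smad7 (-0.16).

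Among 9 target genes 2 were past 1.5-fold, both higher in HFD, and the median was -0.07. Ccn2, which encodes connective tissue growth factor, had 566 UPM in ND and 1096 in HFD, a log2 ratio of 0.95 (0.89 to 1.02), and Cdkn2b, a cell cycle inhibitor, had 24 and 66 UMIs (0.89). The collagen chain Col1a1 had 4435 and 6566 UPM (0.57), under 1.5-fold. Ccn1 (631 and 531 UPM), Cdkn1a (617 and 417 UPM, -0.56) and Bhlhe40 (317 and 270 UPM) had ratios below 0. No target gene was past 1.5-fold lower. The part of the mix of subclusters in these pathway ratios was not tested.

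Over the 24 combinations of named class and library, the levels of several of the 10 genes ran together. Pearson's r of log2 (UPM + 10) was 0.98 between Tgfb3 and Ltbp1 and 0.94 between Tgfb2 and Tgfbr3, and lowest, -0.53, between Tgfb1 and Ltbp1. Among 11881 genes, those most like each of the 10 were Hccs, Dcp2 and Clic1 for Tgfb1 (r 0.90 to 0.86), Cdc42ep5, Ecm2 and Tcaf1 for Tgfb2, and Fxyd1, Pcdh18 and Rbms3 for Tgfb3. For the receptors they were Rnf13, Creb3 and Asah1 for Tgfbr1 (0.93 to 0.88), Nr3c1, Tnrc6a and Tuba1a for Tgfbr2 (0.93 to 0.91) and Copz2, Spats2l and Calu for Tgfbr3. For the latency proteins they were Pard3, Map1b and Plac9b for Ltbp1, Prrx2, Tnfrsf11b and Gsc for Ltbp2, Pcolce, Fkbp14 and Lrp3 for Ltbp3, and Galnt15, Alpl and Fbln2 for Ltbp4. The points share 2 libraries and clusters of unequal depth, so these r values only describe likeness, and for the genes of mesenchymal-like cells many others come close. Likeness over classes need not hold within mesenchymal-like cells. Alpl had 1219 UPM in osteoblast-like and 2.05 in Pi16 fibroblast-like cells, both libraries pooled. Ltbp4 had means of 51.9 and 822 UPM in the same subclusters.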

How the data were processed

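The authors deposited whole-number UMI counts per gene and cell barcode, 1 pooled matrix per diet, made with Cell Ranger 6.0.1, and the submitters' processing notes name mm10. The counts are not normalized, and barcodes had been called as cells but not filtered on genes or mitochondrial UMIs. Class names were rebuilt from markers, so class sizes can differ from the study's in either direction. Members and gene lists were chosen with earlier results of these data known.

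Cells were filtered as in the study (over 500 and under 8000 genes, under 20% mitochondrial UMIs), normalized with sctransform 0.4.2 and clustered in Seurat 5.3.0 (R 4.3.3) with 30 principal components at resolution 0.5, leaving the 9 members among the variable features out. A cluster was named from at least 3 markers enriched 2-fold. Mesenchymal-like cells were subclustered at resolutions 0.2 and 0.5. Subcluster values are those at 0.5, chosen after seeing that 0.2 merged the fibroblast-like cells. After their markers were seen, a pair of them was called by leading genes instead of cell types. Scrublet (scanpy 1.11.5) called 7 ND and 4 HFD cells, too few to have worked, so doublets remain.

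UMIs were summed per class and library. Levels carry exact Poisson intervals, a count of 0 allows up to 3 counts, and shares of cells have exact binomial (Clopper-Pearson) intervals. Diet ratios were computed for every gene with at least 20 UMIs in the class. With 1 library per diet no test was run, and called means past 1.5-fold. The ratios were also run on simulated independent Poisson counts. These hold no spread between cells or mice, so the simulation cannot check the intervals for it. Named genes were the 10 members, list genes past 1.5-fold in mesenchymal-like cells with up to 4 others per list by UMIs, and the 3 genes most correlated with each member. Member coordinates are from GENCODE vM21 and promoters from RefSeq. Clusters made of over 70% ND cells, 3 in number, are treated in an alternative, as are other filters, resolutions, scalings and weights.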

Additional observations from a re-analysis of the deposited data

Results flagged for a closer look

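The HFD over ND ratio of Ltbp4 had opposite directions in different blood cell classes. Its log2 ratio was 1.66 in macrophage/monocyte-like cells (6 ND and 20 HFD UMIs) and 1.12 in neutrophil-like cells (48 and 112 UMIs), but -1.77 in hematopoietic progenitor-like cells (21 and 4 UMIs). With 1 library per diet the difference between classes was not tested. In macrophage/monocyte-like cells 14 of the 20 HFD UMIs lay in 3 resident macrophage-like cells. The summed mesenchymal markers went from 139 UPM in ND to 243 in HFD in neutrophil-like cells, where all 7 had ratios above 0. In progenitor-like cells the sum went from 66.4 to 43.5, though of 5 markers tested 4 had ratios above 0 and 1 below. In macrophage/monocyte-like cells it went from 84.4 to 65.5, with 2 of 6 above 0 and 4 below. The part of these markers in the Ltbp4 values was not tested. The level of Ltbp4 in neutrophil-like cells was 2.97 UPM in ND and 6.51 in HFD, against 488 and 494 in mesenchymal-like cells.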

How the results depend on the processing

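No paired analysis was possible because each diet was 1 pooled library with no map from cells to mice, and for the same reason no mouse could be left out. The count of 0 of 10 genes past 1.5-fold in mesenchymal-like cells and the 9 genes higher in stromal/vascular cells were kept under every alternative run. In all other classes the count of genes past 1.5-fold moved. Keeping cells with over 200 genes gave 1 gene in T cell-like, 7 in erythroid-like and 1 in progenitor-like cells. Resolution 0.25 gave 4 in B cell-like cells, and resolution 1 gave 2 in erythroid-like and 1 in progenitor-like cells. Thinning to 1000 UMIs gave 0 in B cell-like, erythroid-like, macrophage/monocyte-like and pericyte or smooth muscle-like cells, 1 in NK cell-like, endothelial-like and progenitor-like cells and 2 in neutrophil-like cells, where the count, 5 as reported, ran from 1 to 6 over the alternatives. Weighting cells equally gave 1 in T cell-like, 3 in macrophage/monocyte-like and 2 in pericyte or smooth muscle-like cells. A minimum of 100 UMIs gave 0 in B cell-like, erythroid-like, progenitor-like, macrophage/monocyte-like and pericyte or smooth muscle-like cells and 1 in neutrophil-like cells, where fewer genes were tested. A minimum of 1 UMI gave 5 in B cell-like, erythroid-like and progenitor-like cells, 4 in macrophage/monocyte-like and dendritic-like cells, 3 in endothelial-like and basophil or mast-like cells, 2 in NK cell-like and pericyte or smooth muscle-like cells and 1 in T cell-like cells. Without the 3 clusters of mostly ND cells, an alternative chosen after seeing the data, macrophage/monocyte-like cells had 2.

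Tgfb1 lay close to 1.5-fold between the niches. The count of genes higher in ND immune cells went from 1 to 0 with members among the clustering features, with thinning, with mitochondrial, hemoglobin and dissociation genes out of the total, and without the subcluster led by neutrophil genes (chosen after seeing the data). In HFD it went from 0 to 1 with cells weighted equally. Of the single values under alternatives, 638 stayed within their counting interval and 31 moved. Of them, 21 values of 12 results changed sign, all of results under 1.5-fold as reported. Of these changes of sign, the largest was Tgfbr2 in macrophage/monocyte-like cells, from -0.24 to 0.30 with thinning. Other values moved further. Over the alternatives, the log2 diet ratio in neutrophil-like cells ran from 1.11 to 2.87 for Ltbp4 and from -0.30 to 2.65 for Tgfb2. For Ltbp3 in macrophage/monocyte-like cells it ran from 0.34 to 1.70. The cause of these moves was not tested. Depth limits the vascular classes and every gene with few UMIs in blood cells.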
